A study of Homo sapiens with 10 samples.

Results

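The mitochondrial ribosomal proteins described here were the genes with a protein-coding transcript whose symbol begins with MRPS, for the small subunit, or MRPL, for the large subunit, followed by a digit. This rule found 77 of the 19655 genes with a protein-coding transcript, of which 29 were MRPS and 48 were MRPL genes, and it used no measured value. They were measured by RNA-seq in Caco-2, an established human colon carcinoma line, in 10 libraries. All cells were selected with puromycin after infection with dCas9-KRAB, in which a Cas9 without nuclease activity carries the KRAB repressor and can silence the promoter a guide leads it to (CRISPRi). They then received a lentiviral pKLV plasmid with hygromycin resistance that was empty in the 5 libraries labelled gCtl, carried guide g1 against the long noncoding RNA LHFPL3-AS2 in 3 libraries and carried guide g2 in 2 libraries. The dCas9-KRAB cells were selected as monoclonal clones, and all 3 groups carry dCas9-KRAB. The labels carry no replicate numbers and do not say whether libraries came from separate cultures, so p-values measure the spread between libraries, which may be technical.

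Mitochondrial ribosomes are built inside mitochondria from rRNAs that the mitochondrial genome encodes and from proteins that are encoded in the nucleus, made in the cytosol and imported. They translate the few mRNAs of the mitochondrial genome, all of which encode subunits of the respiratory chain and the ATP synthase, so tissues with high respiratory demand, the gut epithelium included, depend on them. The small subunit binds and decodes the mRNA, and the large subunit joins the amino acids. Some of the proteins have bacterial counterparts, and others are found only in mitochondria. The MRPS and MRPL symbols follow the subunit with exceptions, such as MRPS18A, which sits in the large subunit of the human ribosome, and MRPS36, a protein later placed in the 2-oxoglutarate dehydrogenase complex. Below, counts, medians and shares of the small and large subunit follow the MRPS and MRPL symbols, with these exceptions included.

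The genes lay on 21 different chromosomes, so they did not form a single cluster. Some lay side by side, such as MRPL46 (chromosome 15: 88459476 to 88467419, minus strand) and MRPS11 (88467453 to 88480773, plus strand). A promoter sequence from RefSeq (GRCh38.p14, 250 bases before and 50 bases after the start site) matched 68 of the 77 genes. The promoters were searched on both strands for short motifs of factors known for nuclear genes of mitochondria. The ETS family motif CCGGAAG was found in 28 of the 68 promoters (41.2%), against 10.3% of 35116 promoters of the same length over all genes. The 68 genes entered with 1 promoter each, whereas the 35116 promoters were not reduced to 1 per gene or to protein-coding genes. The YY1 motif AAGATGGC was found in 20 (29.4%, against 2.89%), and the NRF1 motif in 8 (11.8%, against 5.78%). No ETS match shared letters with a YY1 match in these promoters. Of the 14 promoters of genes that were lower in the knockdown libraries, 5 held the ETS, 4 the YY1 and 1 the NRF1 motif. The 100 bases before the start site are shown for the 4 genes with the largest decreases whose promoters were in the table, for MRPS22, which also fell, and for MRPL50, which rose. They are written on the strand of the gene, with ETS and YY1 matches in capitals, so that the windows can be set side by side. MRPS22 (log2 fold change -0.72) was not among the largest decreases. MRPL37, MRPS15, MRPS6, MRPL24, MRPL38 and MRPL49 fell more, and their windows, not shown, held no match. Those of MRPL40 and MRPS26, which also fell more, held an ETS match.
MRPS24, chr7:43869518-43869617, minus strand: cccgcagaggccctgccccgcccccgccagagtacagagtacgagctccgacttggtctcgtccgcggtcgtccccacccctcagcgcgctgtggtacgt
MRPL18, chr6:159789712-159789811, plus strand: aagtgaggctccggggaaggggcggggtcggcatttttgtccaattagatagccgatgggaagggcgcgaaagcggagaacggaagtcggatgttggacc
MRPL36, chr5:1799838-1799937, minus strand: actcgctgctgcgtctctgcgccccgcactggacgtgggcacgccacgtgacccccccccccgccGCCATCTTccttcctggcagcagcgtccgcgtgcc
MRPL34, chr19:17292473-17292572, plus strand: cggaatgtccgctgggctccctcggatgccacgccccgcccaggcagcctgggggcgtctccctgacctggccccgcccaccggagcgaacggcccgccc
MRPS22, chr3:139343894-139343993, plus strand: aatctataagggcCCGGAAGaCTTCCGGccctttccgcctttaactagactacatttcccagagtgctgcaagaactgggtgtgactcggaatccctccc
MRPL50, chr9:101398619-101398718, minus strand: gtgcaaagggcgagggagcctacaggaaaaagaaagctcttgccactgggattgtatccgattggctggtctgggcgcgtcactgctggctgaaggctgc
Capitals mark the YY1 match of MRPL36, read on the other strand, and the pair of ETS matches of MRPS22, which lie on opposite strands. The YY1 match of MRPL50 lay outside the bases shown. A match is a description of letters, and binding was not measured.

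The libraries held between 3838803 and 8730468 estimated counts. The deposited values were estimated counts per transcript, which were summed per gene here. LHFPL3-AS2, the target of the guides, did not check the labels, because its mean was 2.23 ± 1.17 reads per 1000000 counts (RPM; SD, n = 5) in gCtl, 3.02 ± 0.963 (n = 3) in g1 and 4.09 ± 2.72 (n = 2) in g2, on 4.39 to 44.0 counts per library. The groups below are therefore the libraries labelled g1, g2 and gCtl, with g1 and g2 together called knockdown, and all directions rest on these labels. All 10 epithelial markers passed the filter on low counts, and their sum was 1948 to 2542 RPM in gCtl, 1816 to 2183 in g1 and 1850 to 1926 in g2. None of the 10 was called by edgeR with the knockdown or g1, and with g2 1 was lower (KRT18) and 1 higher (KRT20, log2 fold change 1.91 ± 0.40). Over all genes tested, 11% were lower and 8.14% higher with the knockdown, 9.95% and 6.81% with g1, and 13% and 10.7% with g2. Of 12 markers of fibroblasts, leukocytes and endothelium, 9 were below the filter on low counts, COL1A1, LYZ and PECAM1 passed it, none of the 12 was at 0 in all libraries, and their sum was 19.9 to 30.4 RPM in gCtl, 26.5 to 43.3 in g1 and 28.3 to 33.0 in g2.

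In the gCtl libraries every mitochondrial ribosomal protein gene was detected. Mean RPM ran from 1.52 for MRPL39 to 156 for MRPL51, with a median of 41.2, and 72 of the 77 genes were over 10 RPM. The small subunit genes had a median of 47.4 RPM and the large subunit genes of 36.1 RPM. The highest on this scale were MRPL51 (156 ± 27.1), MRPS35 (148 ± 34.1) and MRPS5 (144 ± 11.3; SD, n = 5), which did not differ beyond their spread. The lowest were MRPL39 (1.52 ± 0.379), MRPL23 (3.36 ± 1.67) and MRPL54 (6.52 ± 2.14). In these libraries reads start near the polyA tail, so counts do not grow with transcript length, and a level per length gives short transcripts more weight. Per length, on the TPM scale, MRPL51 was still the highest, with a mean of 239, followed by MRPL27 with 195 and MRPL33 with 191. MRPL39 was the only one of the 77 that did not pass the filter on low counts (more than 3 RPM in 20% of libraries or more), so that 76 were tested. Its level was 1.06 to 2.08 RPM in gCtl, 0.521 to 1.29 in g1 and 0.546 to 1.47 in g2.

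Most of these genes had somewhat lower counts in the knockdown libraries, and a minority were called. A gene was called when edgeR's adjusted p was at most 0.05 over all 11640 genes tested and the change was at least 1.5-fold. In the comparison of the 5 knockdown with the 5 gCtl libraries, 15 of the 76 genes were lower (19.7%), against 11% of all genes tested, and 2 were higher (2.63%), against 8.14%. The log2 fold change was negative for 52 of the 76 genes, with a median of -0.27, whereas the median over all genes was 0.02. Of the 15 lower genes, 5 belonged to the small subunit (of 29 tested) and 10 to the large subunit (of 47), and both higher genes belonged to the large subunit. The median was -0.23 in the small and -0.30 in the large subunit. In bulk RNA, fewer cells that express a gene and less RNA per cell cannot be told apart.

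**Figure D1:**
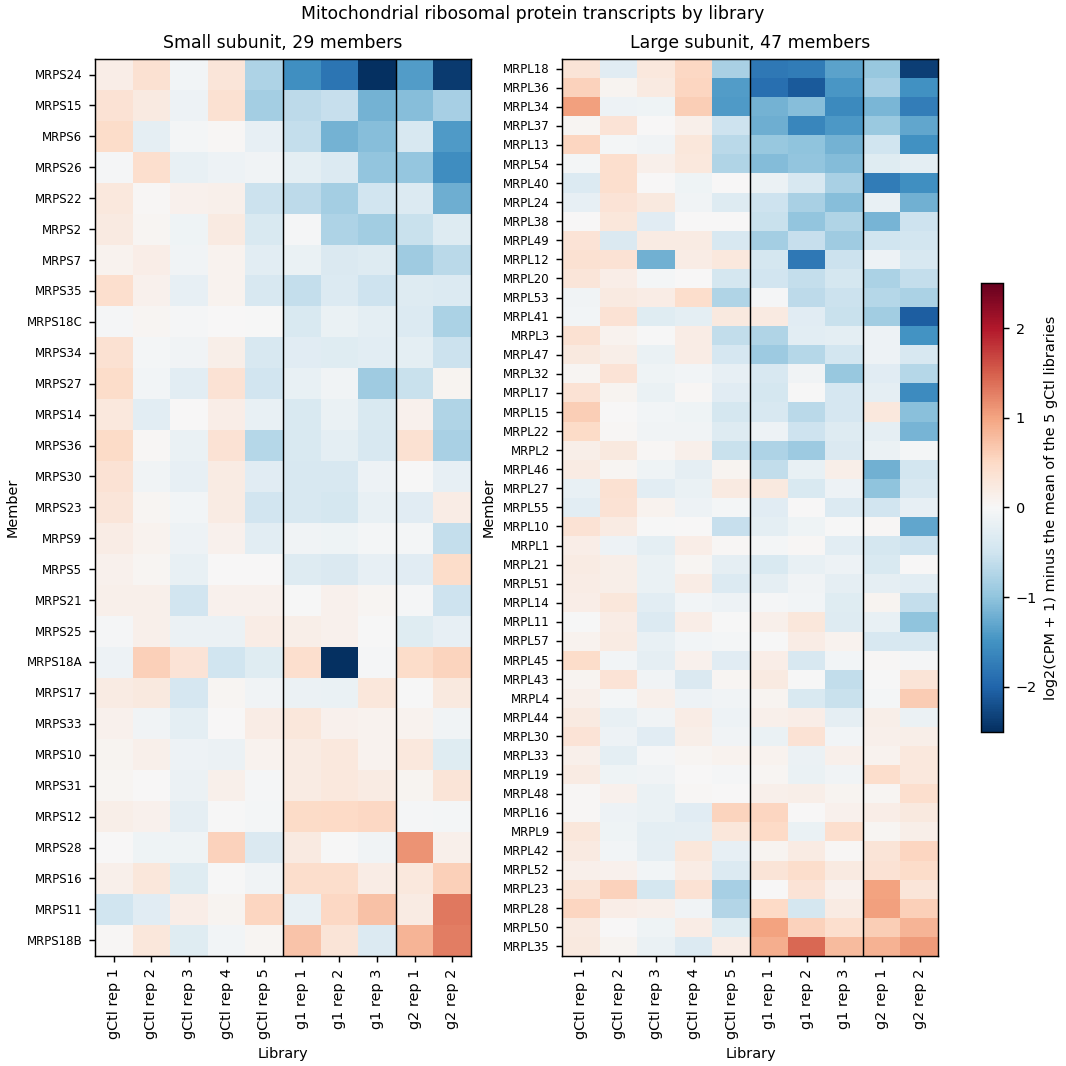
Level of the 76 tested genes in each library (columns), as log2(CPM + 1) minus the mean of the 5 gCtl libraries, with the small subunit on the left and the large subunit on the right. Rows are ordered by the knockdown log2 fold change, and lines separate gCtl, g1 and g2. Blue is lower and red is higher than the gCtl mean. The upper rows, from MRPS24 and MRPL18 downwards, are blue in the knockdown libraries and partly in gCtl replicate 5, and MRPL35 is red in all 5 knockdown libraries.

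The largest decrease was that of MRPS24 (ENSG00000062582, chromosome 7: 43866558 to 43869893 on GRCh38), the counterpart of a bacterial protein at the entry of the mRNA channel of the small subunit. Levels of single genes are given from here on in CPM, which are RPM scaled between libraries by TMM. Its level was 53.7, 62.2, 45.3, 59.2 and 27.8 CPM in gCtl, 15.8, 12.9 and 4.99 in g1, and 17.6 and 8.29 in g2. The groups did not overlap, and gCtl replicate 5 was the lowest of its group. The log2 fold change was -2.07 ± 0.30 (SE; adjusted p = 0.000343), a 4.21-fold lower level. The readthrough gene URGCP-MRPS24 shares the exons of MRPS24, so Kallisto could divide reads between both. Summed, the pair had 54.7 ± 10.7 CPM in gCtl (SD, n = 5), 15.4 ± 1.17 in g1 (n = 3) and 15.5 ± 5.54 in g2 (n = 2), still without overlap.

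MRPL18, the counterpart of a bacterial large subunit protein, was at 14.7, 9.36, 14.1, 17.1 and 6.16 CPM in gCtl, 2.67, 2.74 and 4.02 in g1, and 5.56 and 1.45 in g2. The knockdown libraries were all below gCtl, and the highest of them lay close to gCtl replicate 5. The log2 fold change was -1.89 ± 0.35 (adjusted p = 0.00175) on 297 counts in gCtl and 103 in the knockdown libraries. MRPL36, a very short protein of the large subunit, was at 17.5, 11.9, 13.4, 16.8 and 3.69 CPM in gCtl, 2.33, 1.90 and 3.53 in g1, and 5.92 and 3.34 in g2. Here gCtl replicate 5 lay below 1 of the g2 libraries, so the groups overlapped, and the log2 fold change was -1.87 ± 0.38 (adjusted p = 0.00329). MRPL34 was at 51.7, 22.8, 22.9, 38.8 and 8.62 CPM in gCtl and between 6.83 and 11.4 in the 5 knockdown libraries, with the same library of gCtl among them (log2 fold change -1.62 ± 0.35, adjusted p = 0.00471).

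MRPL37 (ENSG00000116221, chromosome 1: 54184041 to 54225464), a protein specific to mitochondria, had the smallest adjusted p of the group. It was at 40.2, 49.8, 39.2, 42.8 and 27.1 CPM in gCtl, 16.2, 12.02 and 13.8 in g1, and 20.1 and 15.4 in g2. All 5 knockdown libraries lay below all gCtl libraries, and the log2 fold change was -1.36 ± 0.18 (adjusted p = 0.000225), or 2.57-fold. The other 10 lower genes fell by 1.52-fold to 2.12-fold. In the small subunit they were MRPS15, MRPS6, MRPS26 and MRPS22, and in the large subunit MRPL13, MRPL40, MRPL24, MRPL38, MRPL49 and MRPL20. MRPL38, for example, was at 38.2, 46.3, 30.9, 38.0 and 38.0 CPM in gCtl, 25.5, 18.8 and 22.3 in g1, and 16.5 and 26.2 in g2, without overlap.

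Both genes that rose encode large subunit proteins. MRPL35 (ENSG00000132313, chromosome 2: 86199355 to 86213794), the counterpart of a bacterial large subunit protein, was at 21.5, 18.7, 15.9, 14.0 and 20.4 CPM in gCtl, 34.3, 49.8 and 31.8 in g1, and 33.4 and 38.7 in g2. The lowest knockdown library was above the highest gCtl library, and the log2 fold change was 1.05 ± 0.17 (adjusted p = 0.00077), or 2.07-fold. MRPL50, a protein specific to mitochondria, was at 21.0, 17.99, 16.6, 20.5 and 14.2 CPM in gCtl, 37.2, 27.2 and 24.4 in g1, and 28.0 and 32.9 in g2. Its groups did not overlap either (log2 fold change 0.73 ± 0.17, adjusted p = 0.00605). Over all 76 genes, the knockdown libraries lay entirely below gCtl for 8, against 8.33% of all genes tested, and entirely above for 3, against 7.13%.

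**Figure D2:**
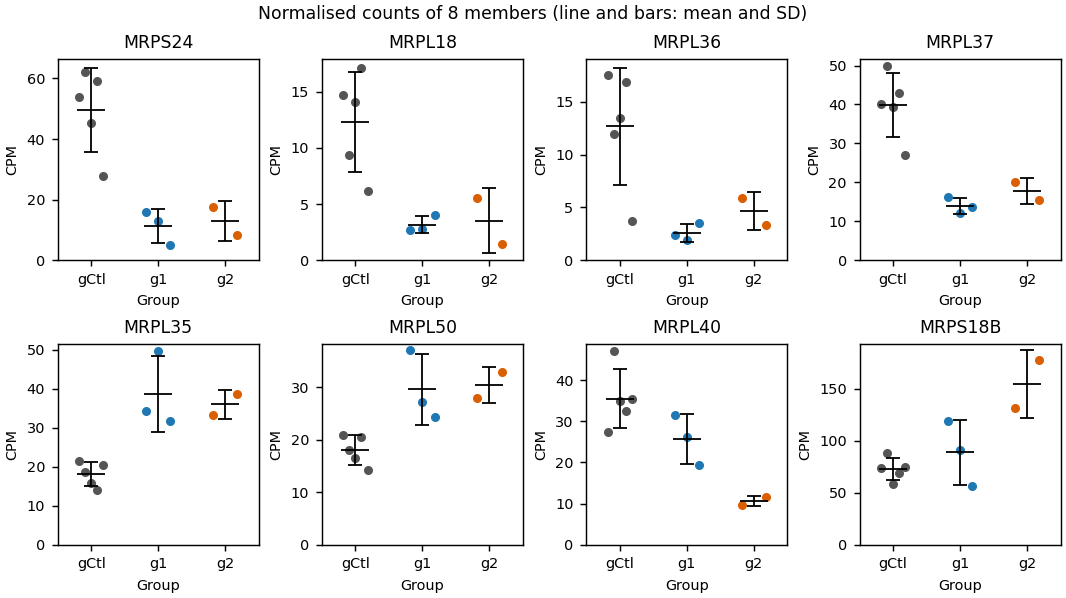
Scaled read level (CPM, linear axes from 0) of 8 genes in gCtl (grey, n = 5), g1 (blue, n = 3) and g2 (orange, n = 2); points are libraries, and lines with bars are means and SD. MRPS24, MRPL18, MRPL36 and MRPL37 are lower with both guides, MRPL35 and MRPL50 are higher with both, MRPL40 is lowest in g2 (9.68 and 11.5) and MRPS18B is highest in g2 (132 and 177).

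Library gCtl replicate 5 moved with the lower genes. It was the lowest gCtl library for 11 of the 15, and for 38 of all 76 genes, and for none of the 15 was it the highest. The 15 genes were without overlap between the groups in 7 cases (46.7%), and in 13 cases (86.7%) when that library was left out. Of all 1284 genes called lower, 62.3% were without overlap, and 83.3% when it was left out. Without it, 20 of the 76 genes (26.3%) were called lower, against 12.1% of all genes, and 2 were higher, against 8.35%. Its total of 5674360 counts was the highest of gCtl, and its part in the differences was not tested beyond this.

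The call of several of these genes rested on transcripts that are not annotated as protein-coding. For 8 of the 15 lower genes most counts in gCtl were assigned to protein-coding transcripts, and for 7 (MRPL13, MRPL20, MRPL24, MRPL38, MRPL40, MRPS6 and MRPS22) to transcripts of the gene annotated as retained intron, processed transcript or nonsense-mediated decay. Among all 76 genes most counts lay on protein-coding transcripts for 58. Among the 15, MRPL20, a core protein of the large subunit, turned direction on protein-coding transcripts alone. Its protein-coding transcripts were at 25.1 ± 3.85 CPM in gCtl (SD, n = 5) and 33.7 ± 4.45 in the knockdown libraries (n = 5), whereas its other transcripts fell from 43.8 ± 16.7 to 11.6 ± 4.82. The small RNA pseudogene RN7SL657P overlaps exons of MRPL20 on the same strand. All counts of MRPL38 and MRPS6 in gCtl lay on other transcripts, and MRPS6 shares exons with SLC5A3, a solute transporter gene on the same strand. In a fit on protein-coding transcripts alone, added after seeing the data, 69 genes of the group passed the filter, 9 were lower, against 10.2% of all genes in that fit, and 4 were higher, against 7.24%. The 9 included MRPS24, MRPL18, MRPL36, MRPL34 and MRPL37, with log2 fold changes between -2.13 and -1.34, and both MRPL35 and MRPL50 stayed higher (1.07 and 0.75). In that fit MRPL20 had a log2 fold change of 0.45 (adjusted p = 0.0615), and MRPS16, which was not lower over all its transcripts (0.38), was called lower at -3.90 (adjusted p = 0.0429). MRPL13, one of the genes lower with both guides over all its transcripts, was at -0.0018 (adjusted p = 0.998) in that fit.

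The differences also moved with transcript length. The 15 lower genes had a median length of 1009 bases, weighted by the counts of their transcripts, the 59 not called had 1306, and MRPL35 and MRPL50 had 2296 and 3332, whereas the median over all genes tested was 2789. Across the 76 genes the log2 fold change and length had a Spearman rho of 0.29, and across all 11640 genes of 0.23. These are correlations across genes measured in the same libraries, and genes are not independent replicates. When a smooth trend on length was removed from each library, 8 genes remained lower (MRPS24, MRPL18, MRPL36, MRPL34, MRPL37, MRPL13, MRPS15 and MRPS6), all of them among the 15, and 5 were higher, with MRPL9, MRPL52 and MRPS18B added to MRPL35 and MRPL50. In that fit the lower share of 10.5% was close to that over all genes (8.97%), and the higher share of 6.58% stood against 8.94%. The median of the 76 genes was then -0.08, against 0.04 over all genes. GC content differed as well, with a median of 52.0% in the lower and 47.8% in the genes not called. The part of length and GC content in the single results was not tested beyond this.

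The guides were then compared separately, since they are different reagents against the same RNA. With g1, 15 genes were lower, against 9.95% of all genes tested, and 2 were higher, against 6.81%. With g2, 18 were lower, against 13%, and 3 were higher, against 10.7%. Both comparisons share the gCtl libraries. The genes lower with both guides were 10: MRPS24, MRPL18, MRPL36, MRPL34, MRPL37, MRPL13, MRPS15, MRPS6, MRPS22 and MRPL38. They were 13.2% of the 76 genes, against 5.71% of all genes lower with both guides. With the length trend removed, MRPS15, MRPS22 and MRPL38 lost the call with both guides, and MRPL36 and MRPS6 lost it with g2. MRPL35 and MRPL50 were higher with both (log2 fold change 1.09 and 0.72 with g1, 0.99 and 0.76 with g2), against 3.57% of all genes, and no gene was called in opposite directions. The 5 genes lower with g1 alone were MRPL54 (-1.39 ± 0.35), MRPL49, MRPL24, MRPL47 and MRPL2, all of the large subunit. The 8 genes lower with g2 alone were MRPL40, MRPL41, MRPS26, MRPL53, MRPL46, MRPS7, MRPL20 and MRPL27. In all, 26 of the 76 genes were called in at least 1 of the 4 comparisons and 50 in none. The shares of all genes called in at least 1 comparison, or with 1 guide alone, were not counted. These counts therefore describe the group and cannot be set against all genes. With g2, the count rested on 1 library, because 7 genes were lower without g2 replicate 2, against 7.37% of all genes, and 22 without g2 replicate 1, against 14.8%. The remaining library is assumed there to vary like the other groups.

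**Figure D3:**
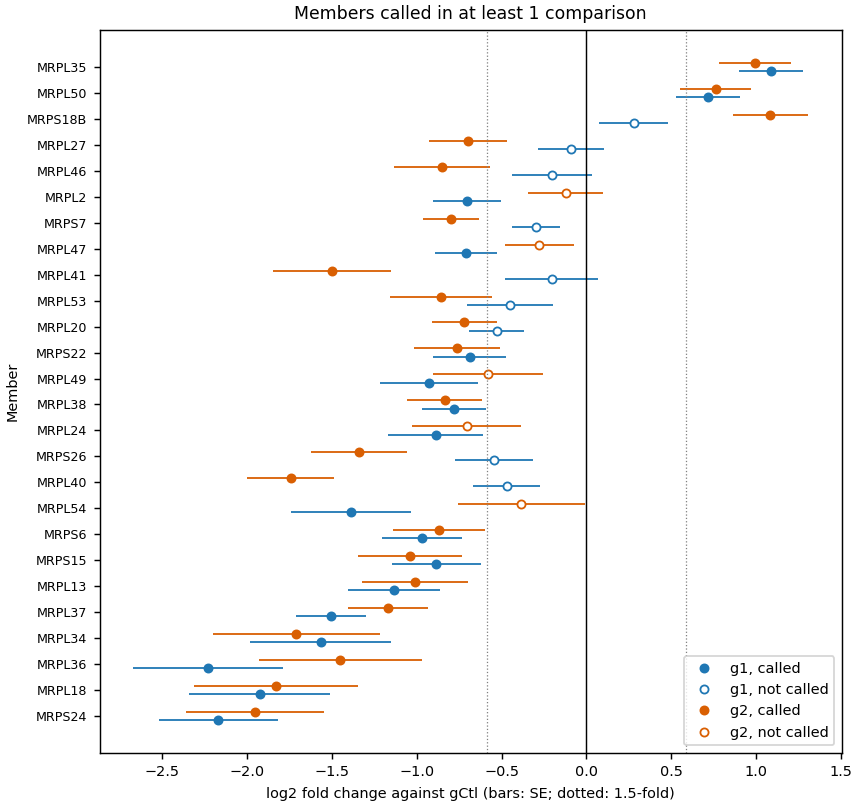
Log2 fold change against gCtl for the 26 genes called in at least 1 comparison, with g1 in blue and g2 in orange; bars are SE, filled points are called and open points are not, and dotted lines mark 1.5-fold. The lowest rows, MRPS24 to MRPS6, are called with both guides, and MRPL40, MRPL41, MRPS26 and MRPS18B lie apart between the guides.

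The guides differed from each other for 1 gene. MRPL40 (ENSG00000185608, chromosome 22: 19431902 to 19436075), a protein specific to mitochondria, was at 27.5, 47.0, 35.1, 32.5 and 35.4 CPM in gCtl, 31.7, 26.2 and 19.5 in g1, and 9.68 and 11.5 in g2. Both g2 libraries were below all others. The log2 fold change of g2 against g1 was -1.27 ± 0.27 (adjusted p = 0.0123), against 3.42% of all genes called lower in this comparison, and none of the 76 was called higher, against 1.56%. At an unadjusted p under 0.05, 16 of the 76 (21.1%) differed between the guides, the same share as over all genes (21%). Most MRPL40 counts, 88.2% in gCtl, were assigned to transcripts that are not protein-coding. On protein-coding transcripts alone MRPL40 was at 4.20 ± 2.40 CPM in gCtl, 3.24 ± 0.631 in g1 and 1.65 ± 2.34 in g2, and no gene of the group was called lower in g2 against g1. MRPL41 had a similar pattern, with 17.8 to 28.8 CPM in gCtl, 14.7 to 26.2 in g1, and 11.7 and 4.51 in g2, and its difference between the guides was -1.29 ± 0.37 (adjusted p = 0.0534).

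MRPS18B was the 1 gene that was higher with g2 alone. The human genome holds paralogs MRPS18A, MRPS18B and MRPS18C, which occupy different places in the mitochondrial ribosome. MRPS18B was at 74.2, 88.1, 58.2, 69.3 and 74.9 CPM in gCtl, 119, 90.9 and 56.6 in g1, and 132 and 177 in g2. Both g2 libraries were above all others, while the g1 libraries spanned the gCtl range and more. The log2 fold change was 1.08 ± 0.22 with g2 (adjusted p = 0.00286) and 0.28 ± 0.20 with g1 (adjusted p = 0.358), and the difference between the guides was 0.80 ± 0.25 (adjusted p = 0.0736). Its counts lay on 1 processed transcript almost entirely (99.5% on transcripts that are not protein-coding in gCtl), so the protein-coding form was not measured apart. MRPS18C was at 58.9 to 62.1 CPM in gCtl, 46.0 to 53.6 in g1, and 47.0 and 34.2 in g2. All knockdown libraries were below gCtl, but the change of -0.38 ± 0.13 (adjusted p = 0.0486) was less than 1.5-fold. MRPS18A was at 5.54 to 13.0 CPM in gCtl and 11.8 and 12.6 in g2, and in g1 at 11.5 and 8.16 with replicate 2 at 0 counts, which allows up to 0.633 CPM by counting error alone (log2 fold change 0.03 ± 0.52). Of the summed counts of the paralogs, MRPS18B held 45.5% to 54.0% in gCtl, 49.1% to 67.4% in g1, and 69.1% and 79.1% in g2.

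The other genes fixed by role were not called in the knockdown comparison. MRPL12 and MRPL10, which form the stalk that recruits translation factors, had log2 fold changes of -0.71 ± 0.35 (adjusted p = 0.146) and -0.30 ± 0.23 (adjusted p = 0.368). The conserved core proteins MRPL3, MRPS2 and MRPL4 were at -0.55 ± 0.24, -0.52 ± 0.20 and 0.00 ± 0.22. MRPS27, a member of the pentatricopeptide repeat family that binds RNA, was at -0.34 ± 0.21, and MRPL44, which has the fold of a ribonuclease, was at 0.01 ± 0.16. MRPS36 was at -0.30 ± 0.24. Among the most abundant, MRPS35 was at -0.45 ± 0.15 (adjusted p = 0.041), under 1.5-fold, and MRPL51 and MRPS5 at -0.22 ± 0.13 and -0.11 ± 0.16. MRPL23, the lowest gene tested, was at 0.40 ± 0.39.

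Small and large subunit transcripts stayed in nearly the same proportion in gCtl and g1, and the small share was higher in both g2 libraries. The summed level of the 77 genes was 3240 to 4155 CPM in gCtl, 3130 to 3412 in g1, and 3263 and 3261 in g2, so that the knockdown libraries overlapped the lower gCtl libraries. The 29 small subunit genes held 43.7% to 44.4% of this sum in gCtl and 43.9% to 44.1% in g1. In g2 they held 45.0% and 48.2%. The log2 ratio of small to large differed from gCtl by -0.00061 in g1 and by 0.152 in g2, where 1 library decided the value, since the difference was 0.0574 without g2 replicate 2. MRPS18B had the largest rise in that library, by 104 CPM over the gCtl mean, followed by MRPS16 (60.3) and MRPS5 (51.0), and the largest fall was that of MRPL11 (-64.0). Without MRPS18B the small share of g2 replicate 2 was 45.2%, and the other 9 libraries were at 42.1% to 43.4%. Among these, g2 replicate 1 was at 42.7%, within the gCtl range of 42.3% to 43.4%. As a description with no test, g2 replicate 2 thus stood apart with and without its most changed gene.

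**Figure D4:**
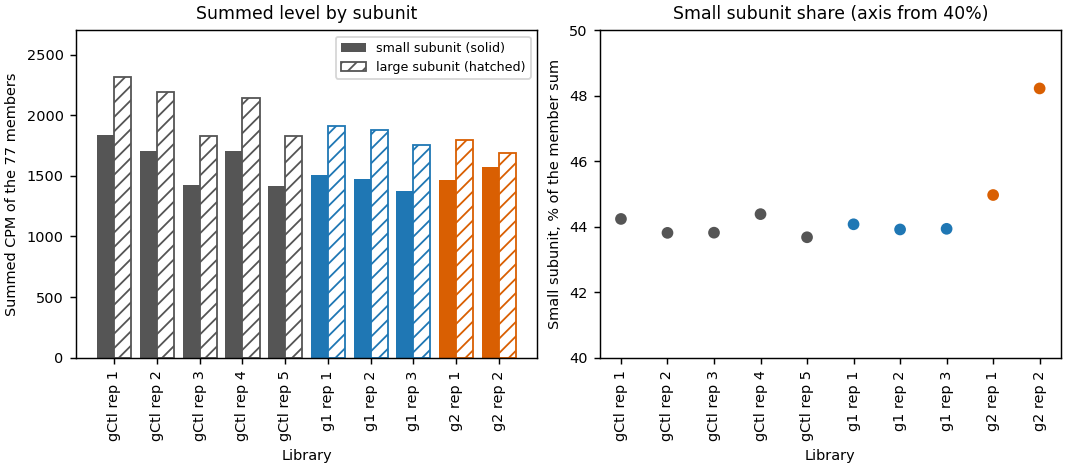
Left, summed CPM of the 29 small (solid) and 48 large subunit genes (hatched) in each library, with the axis from 0. Right, the small subunit share of the sum in percent, with the axis from 40%. Grey is gCtl, blue is g1 and orange is g2; g2 replicate 2 has the highest share (48.2%), and the other libraries lie between 43.7% and 45.0%.

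Other genes of mitochondrial translation were taken from fixed lists. Of 6 further ribosomal proteins whose symbols do not start with MRP, 2 (33.3%) were lower with the knockdown and with each guide, and none was higher. Over all genes tested, 11% were lower with the knockdown, 9.95% with g1 and 13% with g2. AURKAIP1, a small subunit protein, was at 76.1 ± 15.5 CPM in gCtl (SD, n = 5), 32.5 ± 2.36 in g1 (n = 3) and 40.4 ± 0.0469 in g2 (n = 2), with a log2 fold change of -1.09 ± 0.16 (adjusted p = 0.000384). ICT1, a peptidyl-tRNA hydrolase of the large subunit, was at 18.6 ± 2.45, 9.38 ± 0.93 and 8.19 ± 5.41 CPM in the same order (-1.06 ± 0.23, adjusted p = 0.00504). Of 25 tested assembly factors, 4 were lower with the knockdown (16%, against 11% of all genes), and none was higher. They were WBSCR16 (-1.03 ± 0.18), the GTPase ERAL1 (-1.43 ± 0.45), the rRNA methyltransferase MRM1 (-1.07 ± 0.32) and the small subunit factor RBFA (-0.72 ± 0.20). ERAL1 and MRM1 rest on few counts. ERAL1 was at 1.41 to 8.25 RPM in gCtl and 0.683 to 2.94 in the knockdown libraries, with overlap. MRM1 was at 3.45 to 7.03 RPM in gCtl and 1.30 to 3.30 in the knockdown libraries. The assembly list differed between the guides for 3 genes, the helicases DDX28 (g2 against g1 -1.46 ± 0.23, adjusted p = 0.00206) and DHX30 (-0.69 ± 0.17, adjusted p = 0.0335) and the RNA-binding protein FASTKD2 (-0.82 ± 0.21, adjusted p = 0.0365). These 3 were 12% of the list, against 3.42% of all genes. With g2 these 3 and MRM1 and WBSCR16 were lower than gCtl (20%, against 13% of all genes). The pseudouridine synthase TRUB2 was higher with g2 (0.73 ± 0.18), or 4% of the list, against 10.7% of all genes.

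None of the 15 translation factors was called against gCtl by edgeR, whereas 11% of all genes were lower and 8.14% higher with the knockdown. Without the fold minimum, 2 passed the adjusted p upwards with g1, among them LETM1 (0.58 ± 0.13), an inner membrane protein, and 2 downwards with g2. Of all 11640 genes, 1055 passed upwards with g1 and 1624 downwards with g2. LETM1 and the elongation factor TUFM were lower in g2 than in g1 (-0.93 ± 0.17 and -0.72 ± 0.20, adjusted p = 0.00524 and 0.0491). They were 13.3% of the 15, against 3.42% of all genes. Of 18 tested mitochondrial aminoacyl-tRNA synthetases and their partners, HARS2 alone was lower with the knockdown (-1.15 ± 0.28, adjusted p = 0.00931). This was 5.56% of the list, against 11% of all genes. With g1, HARS2 and FARS2 were lower (11.1%, against 9.95% of all genes). With g2, LARS2 and GATC were among the lower genes (16.7%, against 13%). Of 81 cytosolic ribosomal proteins, 20 were lower (24.7%) and 1 was higher (1.23%) with the knockdown, with a median of -0.21. Over all genes tested, 11% were lower and 8.14% were higher. The mRNAs that mitochondrial ribosomes translate moved further. Of the 13 mitochondrially encoded mRNAs, 10 were lower with the knockdown, 8 with g1 and 13 with g2, against 11%, 9.95% and 13% of all genes. Their share of all counts was 5.27% to 9.56% in gCtl, 3.10% to 5.13% in g1, and 1.503% and 2.58% in g2. This share did not overlap between gCtl and the knockdown libraries, whereas the summed level of the 77 nuclear genes did, and the part of this share in the results was not tested.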

How the data were processed

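The authors made Lexogen QuantSeq single-end libraries, pseudoaligned reads to GENCODE v24 with Kallisto (42.5 per the labels) and deposited estimated counts per transcript, not normalized. Here these were summed per gene and rounded. RPM used all counts of a library, and TPM was computed from annotated lengths. Protein-coding genes over 3 RPM in 20% of libraries or more (11640) were fitted with edgeR 4.0.16 in R 4.3.3 (TMM, glmQLFit, glmQLFTest), once as knockdown (g1 and g2) against gCtl and once with 3 groups, and p was adjusted by Benjamini-Hochberg over all of them. Genes were called where the adjusted p did not exceed 0.05 and levels differed 1.5-fold or more. The scripts were tested on simulated data. Between 3838803 and 8730468 counts per library set the precision, so that genes below 10 RPM rest on few counts.

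Named genes were those called in any comparison, a set chosen by role, the 3 highest and 3 lowest in gCtl, and called genes of the companion lists, except that mitochondrially encoded and cytosolic ribosomal genes, epithelial genes and markers of other cells are given as counts. A result of a companion list is not reported here. Members and lists were chosen with earlier results of these data known. Alternatives were DESeq2 1.42.0, limma 3.58.1, other scalings and filters, trends on length and GC content removed, added counts of pseudogenes and readthrough genes, protein-coding transcripts alone, and each library left out. Coordinates are of GENCODE v29 (GRCh38).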

Additional observations from a re-analysis of the deposited data

Results flagged for a closer look

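Of 43 sets of 5 gCtl values examined, 2 held a library far from the others, where chance gives about 1 in 20. MRPL12 was at 4.01 CPM in gCtl replicate 3, against 12.03 to 14.0 in the other gCtl libraries, and MRPS26 was at 31.2 CPM in gCtl replicate 2, against 20.2 to 22.7.

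MRPL40 differed between the guides, with a log2 fold change of -1.27 in g2 against g1 by edgeR's quasi-likelihood test (adjusted p = 0.0123, 1 of 76 genes). Both g2 libraries were below all 3 g1 libraries. The call was lost on protein-coding transcripts alone, when tested against a fold of 1.5, and without g1 replicate 1.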

How the results depend on the processing

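No paired analysis was possible because the labels carry no replicate numbers. With the length trend removed, 8 genes were lower and 5 higher in the knockdown, 7 and 5 with g1, and 8 and 8 with g2, shares of 6.58% to 10.5% against 7.53% to 11.2% over all genes. With length and GC trends removed, an alternative chosen after seeing the data, these were 9 and 8, 8 and 5, and 11 and 9, or 6.58% to 14.5% against 7.89% to 11.1% over all genes, with 1 higher in g2 against g1. Tested against a fold of 1.5 (edgeR's glmTreat), they were 5 and 1, 4 and 1, and 5 and 0, with 0 lower between the guides. Over all 11640 genes, glmTreat gave 330 and 158, 329 and 177, and 517 and 285, with 70 lower between the guides. On protein-coding transcripts alone, 9 were lower and 4 higher in the knockdown, 8 lower with g1, 10 lower with g2, and 0 lower and 1 higher between the guides. Over all 10268 genes in that fit, these were 1049 and 743, 930, 1114, and 234 and 126. With g2, 5 were higher by DESeq2 (1285 of 11640 over all genes) and 5 without the filter (1324 of 16904). Between the guides DESeq2 and the fit without the filter each gave 2 lower and 1 higher. Over all genes these fits gave 543 and 288, and 528 and 245. Library totals alone and limma each gave 4 lower, against 630 and 660 over all genes. The causes were not tested.

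Leaving out 1 library gave 11 (without gCtl replicate 2) to 20 (without gCtl replicate 5) lower and 2 to 3 higher genes in the knockdown, 10 (without g1 replicate 3) to 19 lower and 1 to 2 higher with g1, 7 to 22 lower and 2 to 4 higher with g2, and 0 (without g1 replicate 1) to 5 (without g2 replicate 1) lower and 0 to 3 higher between the guides. Over all 11640 genes, 1035 were lower in the knockdown without gCtl replicate 2 and 1413 without gCtl replicate 5. With g1, 762 were lower without g1 replicate 3 and 1395 without gCtl replicate 5. The small to large log2 ratio differed from gCtl by 0.0139 to 0.0764 in the knockdown, -0.00512 to 0.00521 in g1 and 0.0574 to 0.246 in g2. In g1 it was 0.0530 as a mean of log2(CPM + 1) and -0.0519 without the most abundant gene of each subunit.

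On protein-coding transcripts alone 5 of 69 genes turned direction in the knockdown: MRPL20 (0.45, and 0.52 with g2), MRPL4, MRPS16 (-3.90), MRPL46 (0.24) and MRPS14 (0.04), of which MRPS16 and MRPS14 were named after their values were seen. MRPL13 turned with g1 (0.38). Among genes near 0, it turned for MRPL4 (library totals -0.0897, mitochondrial genes left out -0.0048, limma -0.14, protein-coding transcripts -0.34, 1 library left out -0.24 to 0.121), MRPL44 (library totals -0.0771, limma -0.0766, 1 library left out -0.0374 to 0.0707), MRPS18A (library totals -0.0760, limma -0.45, 1 library left out -0.14 to 0.332), MRPL51 (length trend 0.0181) and MRPS5 (length trend 0.0418). Of the 17 genes called in the knockdown, 6 kept that call under all 26 alternatives: MRPS24, MRPL18, MRPL36, MRPL34, MRPL37 and MRPL35. Dropping the fold minimum, among the 26, could not remove a call. In g2 against gCtl the call was lost under 9 alternatives for MRPL36, 2 each for MRPL18 and MRPL34, and 1 each for MRPS24 and MRPL35. In g1 against gCtl it was lost under 2 for MRPL34. Library totals alone moved the lower share of calls over all genes from 57.5% to 69.4%, limma to 71.9% and the length trend to 50.1%. Genes under 10 RPM were limited by depth.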
